A study of Homo sapiens with 2 samples.

Results

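Chemokines are small secreted proteins that attract leukocytes along a gradient, and tumor cells of epithelial origin release several of them. This account follows 10 chemokine genes in the transcriptomes of H2087 and H596, established human lung cancer cell lines that the labels describe as lung adenocarcinoma. The genes are CXCL1, CXCL2, CXCL3, CXCL5, CXCL6, CXCL8, CXCL16, CCL2, CCL20 and CCL28. They were listed by symbol, with earlier results of these data known, and make up 10 of the 27685 genes and 16 of the 63714 transcripts measured. Both cell lines were untreated and grown in serum-containing RPMI medium, and each gave 1 mRNA library. H2087 was the line in which the study looked for highly expressed genes, and H596 is known here from its labels. A cell line is a single long-cultured population, so the values describe these cultures and not lung adenocarcinoma in general.

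Chemokines bind G protein-coupled receptors on the responding cell. CXC chemokines that carry a glutamate-leucine-arginine (ELR) motif before their paired cysteines bind CXCR2, and some of them also CXCR1, and draw in neutrophils. CC chemokines mostly draw in monocytes, lymphocytes and dendritic cells. In epithelium, many of these genes are silent or low at rest and are switched on by NF-kB and AP-1 after stimulation with IL1, TNF or microbial products, and their mRNAs are short-lived.

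The estimated counts summed to 46961500 in H2087 and 55387847 in H596. FPKM, the fragments of a gene scaled to the length of its transcripts and the size of the library, is given with the 95% interval that counting error alone allows, and without replicate libraries no other error can be stated. Whether reads were paired is not stated, and counting each mate would make these intervals narrower than they should be. The epithelial markers EPCAM, CDH1, KRT7, KRT8, KRT18 and KRT19 (6 of 6) all stood at 52.3 or above in both libraries. The adenocarcinoma markers NKX2-1 and NAPSA stood at 110 and 21.9 in H2087 but at 0.508 and 0.0645 in H596, and SFTPB and SFTA2 were below 1 in both. The squamous markers KRT5, TP63 and DSG3 stood at 106, 55.2 and 33.9 in H596, against 0, 0.183 and 0 in H2087, and KRT6A and KRT14 were likewise higher in H596 (53.7 against 1.48, and 1.33 against 0). The adenocarcinoma label of H596 was thus not matched by these markers. Of 10 leukocyte markers, PTPRC, CD3E, MS4A1 and TYROBP had 0 counts in both libraries, and the whole list reached 2.25 in H2087 and 0.517 in H596 when summed. The 6 fibroblast markers summed to 3.97 and 10.7 and the 5 endothelial markers to 2.57 and 1.02, in the same order, with COL1A2 and TEK at 0 in both. DCN had 0 counts in H2087 and an FPKM of 9.77 in H596, while COL1A1 (3.89 against 0.916) and KDR (2.16 against 0.201) were higher in H2087. VWF went the other way (0.0589 in H2087 against 0.489 in H596), and CDH5 was alike in both (0.307 and 0.326).

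A different chemokine gene was the highest in each cell line. In H2087, CXCL8 alone held 87.2% of the summed FPKM of the 10 genes, and CXCL16 held 9.12%. In H596, CXCL16 held 79.0%, CCL28 10.2% and CXCL8 4.02%. The sum itself was 166 FPKM for H2087 and 93.7 FPKM for H596. The 6 ELR-positive members (CXCL1, CXCL2, CXCL3, CXCL5, CXCL6 and CXCL8) are called the ELR-positive genes here. Together they took 89.1% of the sum in H2087 and 8.62% in H596. An FPKM of at least 1 was reached by 5 of the 10 genes in H2087, where 45.3% of all genes reached it, and by 6 of the 10 in H596, where 45.5% did. The whole set was therefore close to the general run of genes in how often it was expressed, and the cell lines differed in which member was high. CXCL8 in H2087 was the only member at an FPKM of 100 or more in either library, a level that 2.54% of all genes reached in H2087.

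**Figure D1:**
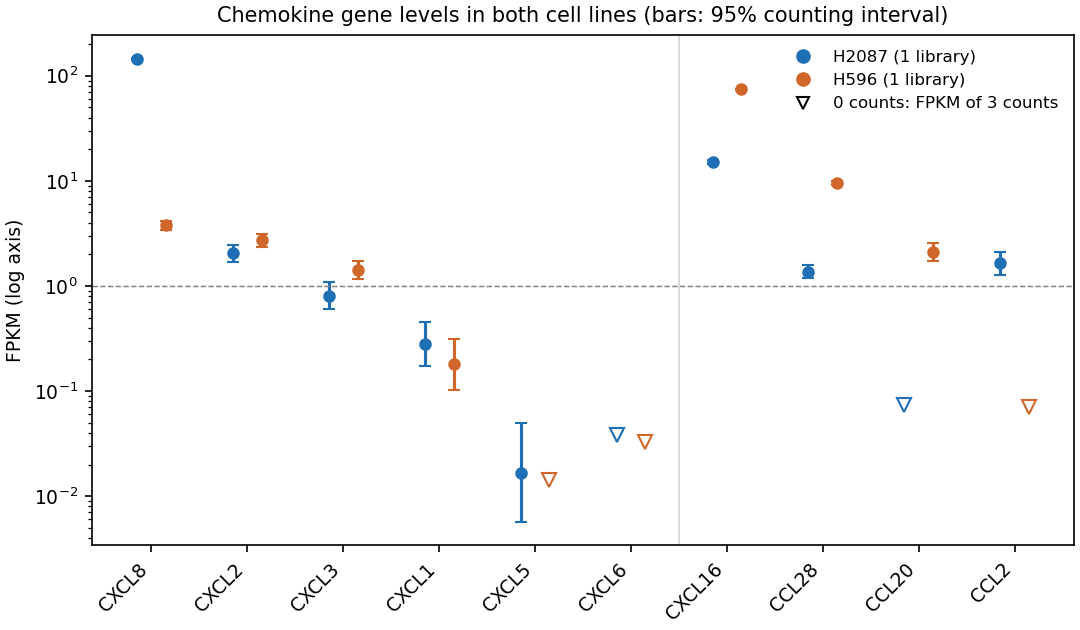
FPKM (log axis) of the 10 chemokine genes in H2087 (blue) and H596 (orange), 1 library each, with bars for the 95% counting interval and open triangles at the FPKM of 3 counts where the count was 0. CXCL8 is far higher in H2087, CXCL16 and CCL28 are higher in H596, and for CXCL1, CXCL2 and CXCL3 the values of the cell lines lie close to each other.

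In order of level, H2087 ran CXCL8, CXCL16, CXCL2, CCL2, CCL28, CXCL3, CXCL1 and CXCL5. The intervals of CXCL2 and CCL2 overlapped there, as did those of CCL2 and CCL28, so those neighbours were not separated by counting error. H596 ran CXCL16, CCL28, CXCL8, CXCL2, CCL20, CXCL3 and CXCL1, and of these neighbours the intervals of CXCL2 and CCL20 alone overlapped.

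The comparison was limited to genes whose FPKM averaged 1 or more over the libraries, and 6 members met this and were compared on the log2(FPKM + 1) scale. CXCL16, CCL28 and CCL20 were at least 2-fold higher in H596, a direction in which 18.2% of 13048 genes were called. CXCL8 was at least 2-fold higher in H2087, where 14.2% of genes were called. CXCL2 and CXCL3 differed by less than 2-fold, as did 67.6% of the genes compared. The 4 members below this mean were CCL2 (0.822), CXCL1 (0.231), CXCL5 (0.00839) and CXCL6 (0), and the lowest members above it were CCL20 (1.05) and CXCL3 (1.11). CCL20 entered the comparison through its H596 value alone, so its call follows in part from the filter. The median difference of all genes compared was 0.12 towards H596.

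**Figure D2:**
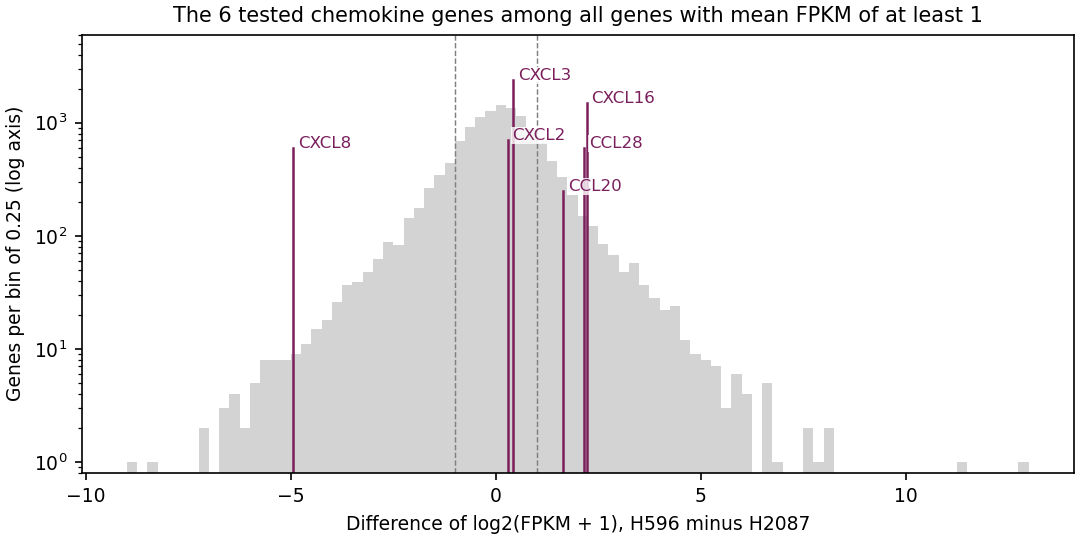
Histogram of log2(FPKM + 1) in H596 less that in H2087, for the 13048 genes whose FPKM averaged 1 or more (bins of 0.25, log axis), with the 6 chemokine genes that passed this filter drawn as lines and the 2-fold limits dashed. CXCL8 lies at -4.94 in the left tail, CXCL16 and CCL28 at 2.21 and 2.16 on the right, and CXCL2 and CXCL3 near the centre.

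CXCL8 (gene 3576), also called IL8, is the best-known neutrophil attractant and binds CXCR1 and CXCR2. It lies on the plus strand of chromosome 4 of hg19, from 74606223 to 74609433, with 1 listed transcript of 1705 bases. Its FPKM was 145 (142 to 148) from 11840 counts in H2087 and 3.76 (3.40 to 4.17) from 365 counts in H596. It ranked 468 among all genes in the first library and 10052 in the second, so a gene near the top of the H2087 transcriptome was an ordinary low gene in H596. Its share of all counts was 38.3 times as high in H2087 (34.5 to 42.6). On the log2(FPKM + 1) scale the difference was -4.94, and only 44 of the 13048 genes, CXCL8 included, lay as far towards H2087. Because these are bulk libraries, fewer expressing cells and less RNA per cell cannot be told apart.

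The promoters of CXCL8 and the other ELR-positive genes are shown because all of them hold the same NF-kB type run of bases while their levels differed widely, and that of CCL20 because it holds a different form of it. Of the 10 genes, 8 had an entry in the RefSeq promoter table (GRCh38.p14); CXCL16 and CCL2 did not. Below are the 150 bases before the listed start of 7 of them, 5′ to 3′ on the strand of the gene, with capitals marking matches to the kappaB pattern GGNNNTTCC on either strand. The windows are, in the order printed, chr4:73740419-73740568 (plus strand), chr4:73869243-73869392 (plus), chr4:74099196-74099345 (minus), chr4:74038690-74038839 (minus), chr4:73998678-73998827 (minus), chr4:73836528-73836677 (plus) and chr2:227813692-227813841 (plus).
CXCL8: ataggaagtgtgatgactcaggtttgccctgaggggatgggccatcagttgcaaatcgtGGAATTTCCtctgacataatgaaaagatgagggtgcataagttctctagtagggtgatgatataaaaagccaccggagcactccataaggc
CXCL1: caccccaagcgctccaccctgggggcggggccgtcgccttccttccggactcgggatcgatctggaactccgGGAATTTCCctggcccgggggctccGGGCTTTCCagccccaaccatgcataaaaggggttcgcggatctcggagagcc
CXCL2: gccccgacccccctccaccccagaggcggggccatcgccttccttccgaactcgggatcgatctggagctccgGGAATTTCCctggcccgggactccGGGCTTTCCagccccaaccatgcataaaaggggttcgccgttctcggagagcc
CXCL3: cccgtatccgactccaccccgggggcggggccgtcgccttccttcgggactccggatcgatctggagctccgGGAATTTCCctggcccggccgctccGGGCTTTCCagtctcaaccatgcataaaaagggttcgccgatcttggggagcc
CXCL5: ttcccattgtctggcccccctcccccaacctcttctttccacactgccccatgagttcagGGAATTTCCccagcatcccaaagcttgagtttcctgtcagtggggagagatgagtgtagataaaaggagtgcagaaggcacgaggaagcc
CXCL6: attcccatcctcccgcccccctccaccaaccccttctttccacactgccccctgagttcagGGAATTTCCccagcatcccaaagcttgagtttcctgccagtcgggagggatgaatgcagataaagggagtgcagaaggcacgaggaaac
CCL20: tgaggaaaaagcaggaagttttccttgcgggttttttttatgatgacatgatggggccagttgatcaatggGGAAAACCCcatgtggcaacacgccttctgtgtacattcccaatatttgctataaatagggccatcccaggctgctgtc

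The run GGAATTTCC was found as the longest that the windows of the 6 ELR-positive members share, so its presence in all 6 was fixed in advance. It occurred in 0.413% of the 35116 promoter windows of 250 bases, a share that is therefore no test of enrichment. The first base of the run lay between -91 (CXCL8) and -77 (CXCL2) relative to the start. The reverse complement of GGAATTTCC, with different letters, also matches the kappaB pattern. In CXCL1, CXCL2, CXCL3, CXCL5 and CXCL6, GGAATTTCC was part of an 11-base run, GGGAATTTCCC, picked in the same way, which 0.0769% of windows held. CXCL1, CXCL2 and CXCL3 had a further kappaB match, GGGCTTTCC, from -53 to -45. The broader kappaB pattern was found in 7 of the 8 members with an entry, CCL28 being the exception, and in 17.1% of all windows. An AP-1 pattern, TGANTCA on either strand, was found in CXCL8 alone of these 8 members, from -137 to -131, and in 6.57% of windows. The TATA pattern TATAAA, also searched on either strand, was found in CXCL8 and CCL20 and in 10.7% of windows, and no match of these patterns overlapped a kappaB match in the members. These are matches of letters, and binding was not measured.

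The other ELR-positive genes were low in both lines. CXCL2 (gene 2920), a CXCR2 ligand, had an FPKM of 2.04 (1.71 to 2.45) from 118 counts in H2087, against 2.72 (2.36 to 3.14) from 186 counts in H596. CXCL3 (gene 2921), another CXCR2 ligand, had 0.809 (0.605 to 1.08) from 45 counts and 1.42 (1.16 to 1.74) from 93 counts, in the same order. Both were slightly higher in H596, the opposite direction to CXCL8, with count shares 1.34 times (1.06 to 1.70) and 1.75 times (1.21 to 2.56) those of H2087. Both shifts were below the 2-fold limit. Their intervals lay above equal shares when scaled by total counts, but do not cover the choice of scaling. The TMM factors, 0.955 for H2087 and 1.05 for H596, would lower both ratios. With a lower limit of 1.06, the shift of CXCL2 was therefore not established. CXCL1 (gene 2919), the closest relative of CXCL2, was nearly silent, at 0.282 (0.174 to 0.459) from 16 counts in H2087 and 0.181 (0.103 to 0.316) from 12 counts in H596. The count share in H596 was 0.636 times that in H2087 (0.275 to 1.43), so no difference was detectable at this depth.

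CXCL5 (gene 6374) and CXCL6 (gene 6372) were at or below the limit of detection. CXCL5 had 3 counts in H2087, an FPKM of 0.0168 (0.00570 to 0.0493), and 0 counts in H596, where 3 counts would be 0.0142. CXCL6 had 0 counts in both libraries, which allows an FPKM of up to 0.0385 in H2087 and 0.0326 in H596. Without CXCL8, the ELR-positive genes came to 3.15 FPKM in H2087 and 4.32 FPKM in H596. The excess of the ELR-positive sum in H2087 was thus that of CXCL8.

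CXCL1, CXCL2 and CXCL3 are close copies, and how their common reads were divided is not stated. Aligned over their whole length, the reference transcripts of CXCL1 and CXCL2 were 83.7% identical, those of CXCL2 and CXCL3 73.0% and those of CXCL1 and CXCL3 69.2%. Of all stretches of 50 bases in CXCL1, 5.33% occurred unchanged in CXCL2, and 0.533% in CXCL3. No stretch of 100 bases was shared by any pair of the 6 ELR-positive transcripts, and CXCL8 shared none of 50 bases with the others. Among the promoters, CXCL5 and CXCL6 were the most alike (85.3% identical over 250 bases), with CXCL1 and CXCL3 next at 81.4%, and CXCL8 was at most 47.9% identical to any other.

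The 6 ELR-positive members lie together on chromosome 4. The stretch from CXCL8 to CXCL2 covers 359 kb, from 74606223 to 74964997, and holds 10 listed genes. In order they are CXCL8, CXCL6, PF4V1, CXCL1, PF4, PPBP, CXCL5, CXCL3, PPBPP2 and CXCL2. PF4V1, PPBP and PPBPP2, which belong to the platelet chemokine group, had 0 counts in both libraries, and PF4, platelet factor 4, was at 0.503 in H2087 (21 counts) with 0 counts in H596. In H2087, the FPKM of CXCL8 was 39.6 times the sum of the other 9 genes (3.65), while in H596 it was 0.872 times that sum (4.32). Before CXCL8, RASSF6 was at 0.345 in H2087 and 4.35 in H596. Beyond CXCL2, MTHFD2L was at 3.34 in H2087 and 3.88 in H596. Further out, the EGFR ligand genes differed in both directions: EREG stood at 99.3 in H2087 and 0.0533 in H596, AREG at 75.0 and 10.5, and EPGN at 0.0299 and 4.01. AREG is annotated at a further, near-identical locus nearby, so its value is uncertain.

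**Figure D3:**
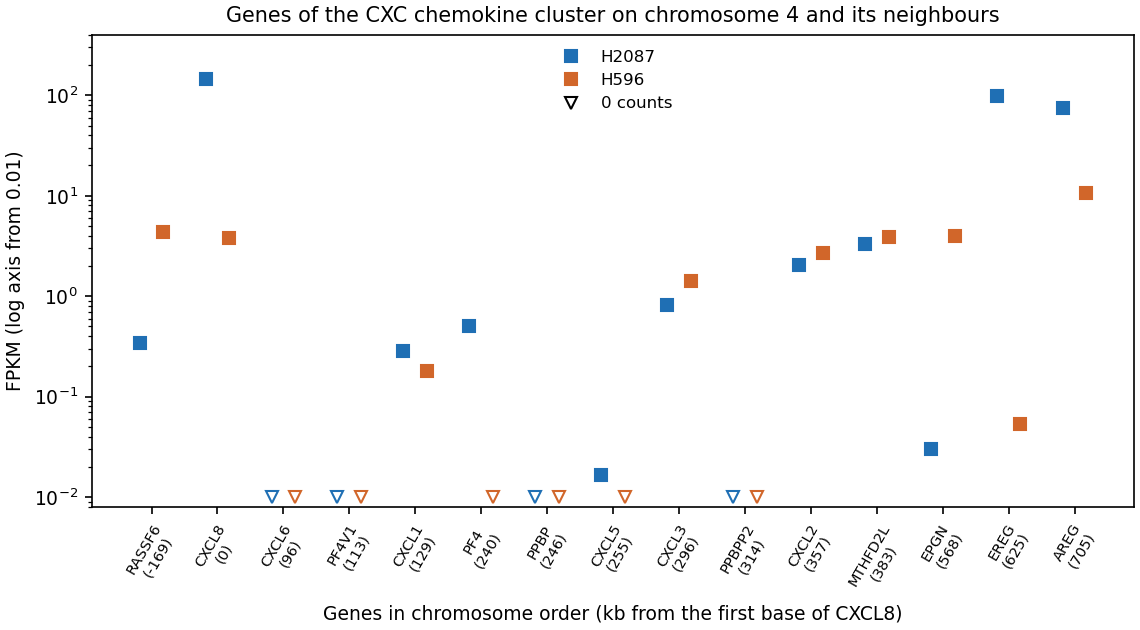
FPKM (log axis, drawn from 0.01) in H2087 (blue squares) and H596 (orange squares) of the genes in and around the CXC chemokine cluster, in chromosome order, with the distance in kb from the first base of CXCL8 in brackets and open triangles at 0.01 for 0 counts. CXCL8 lies at 145 in H2087 against 3.76 in H596, the other chemokine genes of the cluster are at 2.72 or less in both lines, and EREG and AREG, at about 625 and 705 kb, are also higher in H2087.

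CXCL16 (gene 58191) encodes a chemokine that is anchored in the membrane on a mucin stalk, can be shed from it, and binds CXCR6 on T cells and natural killer cells. It lies on the minus strand of chromosome 17, from 4636824 to 4643223. Its FPKM was 15.2 (14.4 to 15.9) from 1646 counts in H2087 and 74.0 (72.5 to 75.5) from 9527 counts in H596. It was the highest chemokine gene of H596, rank 920 among all genes against 4713 in H2087. The difference was 2.21 on the log2(FPKM + 1) scale, and the count share was 4.91 times (4.66 to 5.17) that of H2087. Its main transcript, NM_022059, took 92.8% of the gene's FPKM in H2087 and 93.2% in H596, and the other, NM_001100812, was at 1.09 and 5.01. Both listed transcripts were thus higher in H596. MED11, a neighbouring gene whose listed span overlaps that of CXCL16 by 82 bases, was at 17.9 in H2087 and 32.6 in H596. Whether strand was used in counting is not stated, and the part of this overlap in the CXCL16 value was not tested. Of the proteases that release CXCL16 from the membrane, ADAM10 was also higher in H596, at 79.2 against 29.1, with a count share 2.73 times as high (2.66 to 2.80). ADAM17 was at 16.1 in H2087 and 15.4 in H596, less than 2-fold apart.

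CCL28 (gene 56477), a chemokine of mucosal epithelia that binds CCR10 and CCR3, lies on the minus strand of chromosome 5, from 43376748 to 43412493. Its FPKM was 1.36 (1.18 to 1.57) from 198 counts in H2087 and 9.53 (9.06 to 10.0) from 1471 counts in H596. The count share was 6.30 times (5.43 to 7.34) as high in H596. The difference was 2.16 on the log2(FPKM + 1) scale.

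The transcripts of CCL28 did not differ alike. Of its 4 listed transcripts, 3 begin at 43412493 and NM_001301875 begins 15127 bases downstream, at 43397366. NM_001301875 held 90.1% of the gene's FPKM in H2087 and 40.3% in H596. The transcripts from the upstream start held 8 estimated counts in H2087 and 770 in H596, a share 81.6 times as high (41.2 to 190). From the downstream start the counts were 190 and 701, a share 3.13 times as high (2.66 to 3.69). NM_148672 was at 0 in H2087 and at an FPKM of 3.41 in H596, where it held 35.8% of the gene. Reads of exons common to both starts are assigned by estimation, and the intervals do not cover that error.

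**Figure D4:**
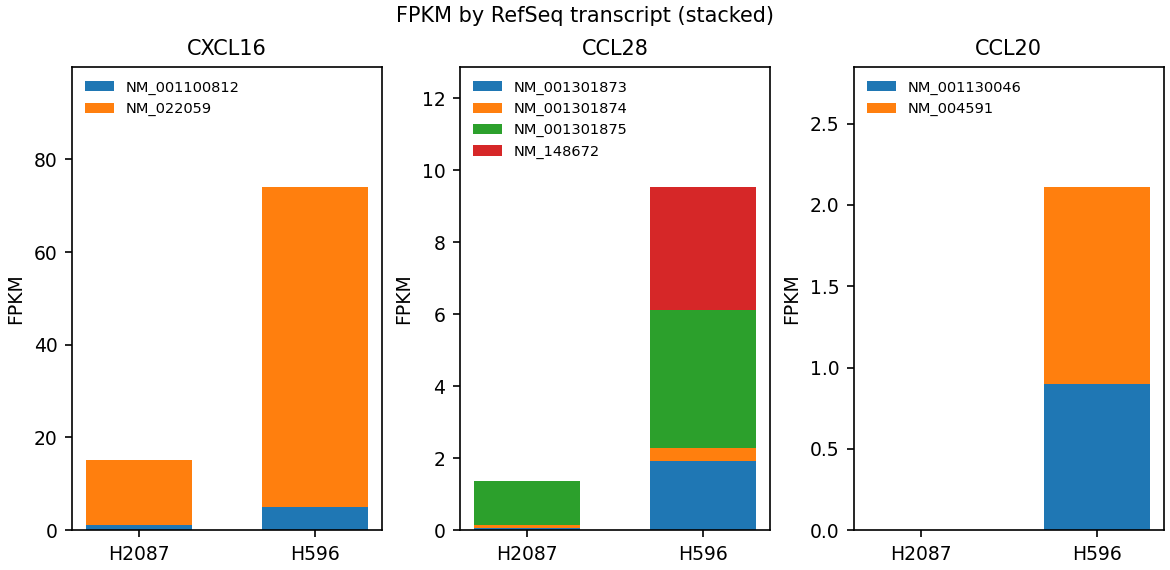
FPKM of each RefSeq transcript, stacked, for CXCL16, CCL28 and CCL20 in H2087 and H596, 1 library each, with a separate axis for each gene. CXCL16 keeps the same makeup at both levels, CCL28 is almost wholly NM_001301875 in H2087 and mixed in H596, and CCL20 has no counts in H2087.

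CCL20 and CCL2 each had counts in a single line. CCL20 (gene 6364), the CCR6 ligand that attracts immature dendritic cells and Th17 cells, lies on the plus strand of chromosome 2, from 228678558 to 228682280. It had 0 counts in H2087, which allows an FPKM of up to 0.0739, and an FPKM of 2.11 (1.74 to 2.56) from 101 counts in H596. With 3 counts taken for the 0, its count share was at least 28.5-fold higher in H596. Such bounds leave out the counting error of the other count and are not 95% limits. Its transcripts NM_004591 and NM_001130046 held 57.4% and 42.6% of that value. CCL2 (gene 6347), the CCR2 ligand that attracts monocytes, lies on the plus strand of chromosome 17, from 32582296 to 32584220. It had an FPKM of 1.64 (1.27 to 2.12) from 59 counts in H2087 and 0 counts in H596, where 3 counts would be 0.0709, so its count share was at least 23.2-fold higher in H2087. Both genes were low where present. CSF1R, a macrophage marker, was at 1.61 in H2087 and 0 in H596, the same pattern as CCL2, while the leukocyte marker PTPRC was at 0 in both and the 10 leukocyte markers summed to 2.25 and 0.517. Their part in the CCL2 value was not tested.

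The receptors of these chemokines were undetected or low in both lines. Of 9 receptor genes, 0 reached a mean FPKM of 1. CXCR1 had 2 counts in H2087 and 0 in H596, CXCR2 had 0 and 38 counts (an FPKM of 0.230 in H596), and CXCR6, CCR2, CCR3 and ACKR1 had 0 in both. CCR10, the CCL28 receptor, had an FPKM of 1.10 from 66 counts in H2087 and 0 counts in H596, the line with more CCL28, so its count share was at least 25.9-fold higher in H2087. CCR6 had 7 and 6 counts, and ACKR2, which scavenges CC chemokines, had 0.0423 in H2087 and 0.497 in H596.

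Among the 38 other chemokine genes listed, 8 had at least 1 count in H2087 and 8 in H596, and 3 reached a mean FPKM of 1. CXCL17, a chemokine of airway mucosa, stood at 0.814 in H2087 and 28.9 in H596, a count share 35.7 times as high (25.7 to 51.1). CX3CL1, which like CXCL16 is made on a membrane stalk, stood at 7.95 from 1266 counts in H2087 and at 0 counts in H596, at least 498-fold higher in H2087. CXCL17 and CX3CL1 passed the filter only through the library in which each was high. CCL22, which attracts regulatory T cells, was at 2.82 and 1.28, a count share 2.19 times as high in H2087 (1.85 to 2.60). The pseudocount of 1 placed CCL22 under the 2-fold limit, and with TMM scaling of the counts it was past it. The 10 members made up 92.3% of the summed FPKM of all 48 chemokine genes in H2087 and 74.2% in H596.

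Most cytokines known to induce these genes were low in both lines, and of 11 listed IL18 and IL1B alone were high enough to be compared. IL18 was at 26.8 in H2087 and 32.9 in H596. IL1B had 0 counts in H2087 and an FPKM of 2.49 from 212 counts in H596, at least 59.9-fold higher, and it passed the filter through H596 alone, while TNF had 0 and 10 counts, and IL17A and OSM had 0 in both. Of 15 genes listed for receptors of such signals, the antagonist IL1RN among them, 13 were compared, of which 5 were at least 2-fold higher in H596, 1 was higher in H2087 and 7 differed by less, beside 18.2%, 14.2% and 67.6% of all genes. TLR3 and TLR5 (0.390 and 2.30) were below an FPKM of 1 in H2087 and passed the filter only through H596. TLR3, a sensor of double-stranded RNA, stood at 0.499 in H2087 and 17.5 in H596, IL1RN at 1.77 and 22.5, and IL17RE at 2.34 and 11.8. IL6ST, the shared receptor chain of the IL6 family, was at 17.7 and 6.90. TNFRSF1A, LTBR and OSMR, the highest of the list, were at 46.3, 36.4 and 36.0 in H2087 and 55.8, 47.8 and 23.5 in H596.

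RELA, NFKBIA and IRAK1 were the highest of 19 listed components of the NF-kB pathway in mean level, and each differed by less than 2-fold between the lines. All 19 were compared, of which 3 were higher in H596, 1 was higher in H2087 and 15 lay within 2-fold, beside 18.2%, 14.2% and 67.6% of all genes. The median difference was 0.07 against 0.12 for all genes. TRAF6 and NFKB1, counted among the 15, had count shares 2.08 times (1.89 to 2.30) and 2.01 times (1.91 to 2.12) those of H2087. The pseudocount of 1 placed both under the limit, and with TMM scaling the number higher in H596 was also 3. RELA, the main activating subunit, had 48.8 in H2087 and 49.2 in H596. NFKBIA, the inhibitor that retains it in the cytoplasm, had 53.1 and 71.8, and the kinase gene IRAK1 69.4 and 54.2. MAP3K14, the kinase of the noncanonical branch, was at 1.05 in H2087 and 9.76 in H596, MYD88, the adaptor of IL1 and Toll-like receptors, at 12.1 and 28.1, and NFKBIE at 2.01 and 5.33. The kinase gene IKBKB was higher in H2087, at 33.5 and 12.8.

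Of 20 other known NF-kB target genes listed, 14 were compared, of which 10 were at least 2-fold higher in H596 and 1 in H2087, beside 18.2% and 14.2% of all genes. C3, PI3 and S100A8 were below an FPKM of 1 in H2087 and passed the filter only through H596, and LIF passed it only through H2087, so these calls follow in part from the filter. LCN2, an iron-binding defence protein, had an FPKM of 13.8 against 460.4 (H2087 against H596), S100A9 14.6 against 240.4, and TNFAIP2 12.4 against 74.6. C3, the central complement protein, had 0.211 and 10.98. LIF, a cytokine of the IL6 family, was the gene higher in H2087, at 22.5 from 4273 counts against 0.539 from 122 counts, a count share 41.3 times as high in H2087 (34.5 to 49.9). Of the genes below the filter, CSF2 had 65 and 0 counts and IL6 53 and 7 counts, while IL11, of the IL6 family, had 8 and 126 counts. Of the colony-stimulating factor genes, CSF1 was at 4.91 in H2087 and 35.95 in H596, the opposite direction to CSF2. The secreted cytokines of the list thus did not share a direction. The list mixes genes of many inputs, and the squamous markers given above differed between the libraries in the direction of LCN2 and S100A9; their part in these values was not tested.

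**Figure D5:**
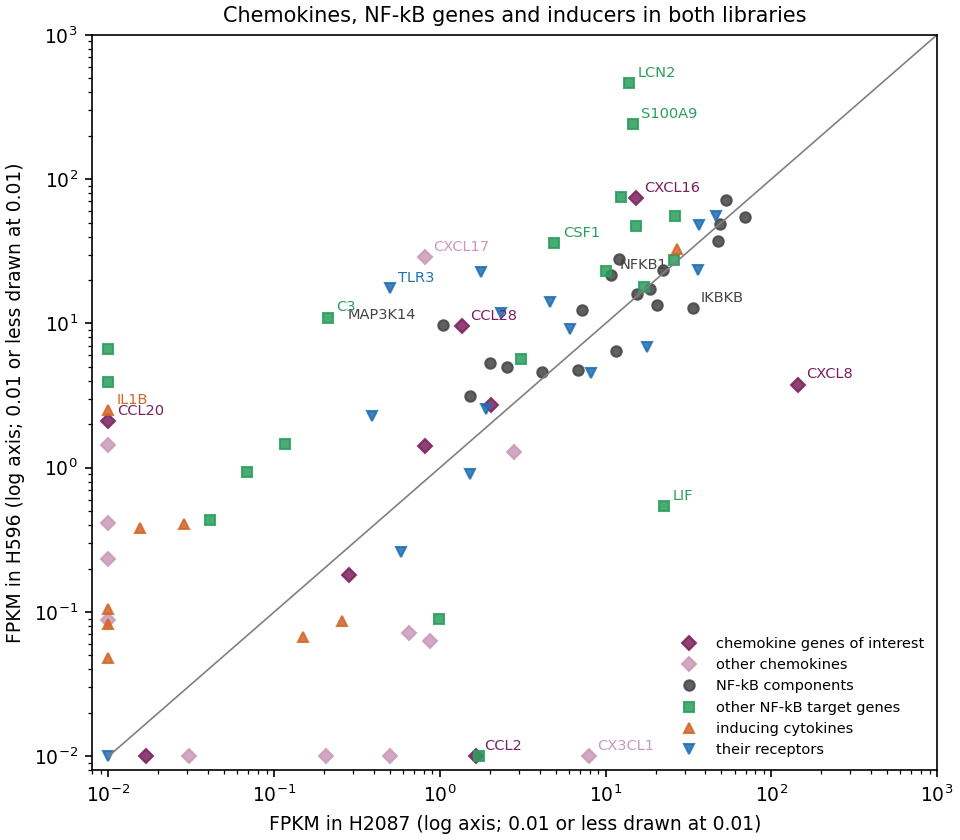
FPKM in H2087 against FPKM in H596 (log axes, values of 0.01 or less drawn at 0.01) of the chemokine genes, NF-kB components, other NF-kB target genes, inducing cytokines and their receptors, with the line of equal values. Most NF-kB components lie near the line, most other target genes lie above it, and CXCL8, LIF, CX3CL1 and CCL2 lie far below it.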

How the data were processed

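Total RNA of untreated H2087 and H596 cells was made into TruSeq stranded mRNA libraries and sequenced on an Illumina HiSeq4000, with 1 library for each cell line. According to the labels and the methods of the study, bcl2fastq 1.8.4, Trimmomatic, HISAT2 2.0.5 and StringTie 1.3.3b were used with the hg19 genome and RefSeq transcripts. For each gene and transcript the authors deposited an estimated count, a whole number whose derivation is not given in the sources used here. They also deposited FPKM, which the authors scaled by transcript length and library size, together with transcript lengths and positions.

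The 10 genes were found by symbol. For genes whose FPKM averaged 1 or more, log2(FPKM + 1) in H2087 was subtracted from that in H596, and a gene was called at a 2-fold difference. The pseudocount of 1 makes the changes of low genes look smaller than they are. No p-value was computed, because each cell line had 1 library. Each FPKM carries the 95% Wilson interval of its count share, ratios of count shares carry the exact (Clopper-Pearson) interval, and 3 counts were the limit for a count of 0. The intervals cover counting error only, and the total counts, 46961500 and 55387847, set their width. Folds given as "at least" divide the observed count share by that of 3 counts, without the error of the observed count. Alternatives were TPM, TMM scaling with edgeR 4.0.16 in R 4.3.3, median-of-ratios size factors, centring, other pseudocounts and filters, and transcript values. Calls and intervals were tested on simulated counts that held counting error only, with changes placed in well-counted genes. That test does not cover variation between cultures or calls on genes with few counts.

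Of every other gene list, up to 3 genes with the highest mean level and up to 3 with the largest difference in each direction were named, and of receptors and sheddases all. CSF1, TLR5, TNF, IL17A, OSM, TRAF6 and NFKB1 were named outside this rule. The members and lists were chosen with earlier results of these data known. EREG, AREG, EPGN, RASSF6, MTHFD2L, MED11, DCN, COL1A1, KDR, PI3, S100A8, IL11, CSF2 and IL6, and the base run common to the promoters, were picked out after their values were seen. Promoters came from RefSeq (GRCh38.p14), of which the 250 bases before each listed start were searched, and transcripts and strands came from GENCODE release 44 on GRCh37. Python 3.11.15, scipy 1.17.1 and Biopython 1.88 were used.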

Additional observations from a re-analysis of the deposited data

How the results depend on the processing

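No paired analysis was possible because H2087 and H596 had 1 library apiece, and no library could be left out. Under the 7 other scales tried (a pseudocount of 0.1, TPM, TMM scaling, median-of-ratios size factors, centring, and the sum or the highest of the transcripts), CXCL8 ranged from -5.23 to -4.94, CXCL16 from 2.10 to 2.43, CCL28 from 1.12 to 2.72 and CCL20 from 1.14 to 4.47, all past 2-fold with the same sign, while CXCL2 (0.17 to 0.50) and CXCL3 (0.30 to 0.74) stayed under 2-fold. With a filter at a mean FPKM of 10, the members higher in H596 numbered 1 in place of 3, since fewer genes were compared. With no filter, 2 members in place of 1 were higher in H2087, CCL2 being added, and there were 2 other chemokines higher in H596 in place of 1 (CCL5 added), 1 receptor gene higher in H2087 in place of 0 (CCR10), and 2 other NF-kB target genes higher in H2087 in place of 1 (CSF2 added) with 11 higher in H596 in place of 10. With TMM scaling, 2 other chemokines in place of 1 were higher in H2087 (CCL22 added), and 9 other NF-kB target genes in place of 10 were higher in H596. In TPM the 10 genes reached a sum of 355 for H2087 and 227 for H596, and the ELR-positive genes 316 and 19.6, because one factor multiplies every FPKM of a library. By the highest single transcript, 2 members in place of 3 were higher in H596, since CCL20 no longer passed the filter, and the sum over the 10 genes was 82.1 in H596. Depth limits CXCL1, CXCL5, CXCL6 and the receptors, where few or no counts were found.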

Other observations

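Chemokine mRNAs are short-lived, proteins that bind them can speed or slow their decay, and 8 genes of such proteins were listed. All 8 were compared, 7 differed by less than 2-fold, beside 67.6% of all genes compared, and the median difference was 0.10 against 0.12 for all genes. HNRNPD was the highest, at 147 FPKM for H2087 against 95.9 for H596. ZFP36, which speeds the decay of cytokine mRNAs, was at 28.5 and 20.1, and ZFP36L1, its relative, at 60.3 and 75.9. ZFP36L2 was the gene past the limit, at 20.7 in H2087 and 45.8 in H596. KHSRP was at 60.9 and 53.7, and TIA1 at 13.7 and 25.5.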
